A study of Mus musculus with 5 samples.

Results

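Fibroblast growth factor (FGF) signalling and its feedback inhibitors were followed through 10 genes chosen by symbol: the ligand gene Fgf8, the receptor genes Fgfr1 and Fgfr2, the Sprouty family genes Spry1, Spry2, Spry4 and Spred1, the MAP kinase phosphatase genes Dusp4 and Dusp6, and the ETS factor gene Etv5. All 10 were among the 23441 rows of the count table and all 10 were among the 12710 genes that passed the filter on low counts. Poly(A) RNA was sequenced from the mandibular part of the first arch of mouse embryos on embryonic day 10.5. The 3 control libraries were labelled 129SvEv with the genotype Yapf/f, Tazf/f, and no Cre is named for them. The 2 double conditional knockout (dCKO) libraries had the genotype Wnt1Cre; Yapf/f, Tazf/f and the background C57BL/6J x CBA/J; 129SvEv. Both groups therefore carried the floxed alleles, and effects of the loss of Yap and Taz, of Cre and of strain background cannot be told apart. Wnt1Cre is active in the premigratory neural crest, so the arch ectoderm, which makes Fgf8, is not a tissue in which it is known to act. The labels name neither the embryos nor any pooling behind a library, and a p-value here covers just the library-to-library spread, which may be technical.

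In the mandibular arch, FGF8 from the oral ectoderm signals to the neural crest mesenchyme beneath it, where FGFR1 and FGFR2 activate the RAS-ERK cascade. ERK activity switches on the ETS factors ETV4 and ETV5 together with inhibitors of the same cascade. Sprouty and SPRED proteins act on RAS and RAF activation, while the dual-specificity phosphatases (DUSP) remove phosphate from ERK itself. Transcripts of these feedback genes are therefore widely used as readouts of FGF activity.

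Total counts ran from 6491137 to 7439419 in the controls and were 11346480 and 13298973 in the dCKO libraries. Yap1 and Wwtr1 (the symbol of Taz) were lower in both dCKO libraries than in any control (log2 fold changes −1.33 and −1.31). Together they summed to 350, 540 and 578 counts per 1000000 in control replicates 1, 2 and 3. In dCKO replicates 1 and 2 the sums were 197 and 193. The mandibular mesenchyme markers (13 of 13 tested, among them Hand2, Dlx5 and Prrx1) summed to 2393 to 2571 counts per 1000000 (CPM) in the controls and 2187 and 2262 in dCKO tissue, with 3 of 13 called lower (Prrx1, Dlx5 and Dlx6). Epithelial markers summed to 449 to 568 CPM in the controls and 667 and 697 in dCKO tissue, with 4 of 14 called higher (Krt8, Krt18, Krt19 and Esrp2). All 12 tested erythroid and all 10 tested megakaryocyte genes were called higher, the summed erythroid CPM being 3422 to 4435 in the controls and 55802 and 80062 in dCKO tissue. Endothelial markers summed to 274 to 308 and 301 to 347 CPM (1 of 10 called higher, Cldn5), myeloid markers to 14.98 to 16.5 and 25.1 to 39.5 (1 of 6, Laptm5), arch core mesoderm markers to 67.1 to 94.1 and 100.4 to 115.5 (0 of 6) and neural markers to 13.7 to 24.9 and 26.3 to 30.4 (1 of 4, Sox10). These counts stand beside 5.0% of all tested genes called higher and 1.42% called lower (edgeR adjusted p below 0.05). In tissue of mixed cells, fewer cells of a type and less RNA per cell cannot be told apart. Control replicate 3 stood apart in Hand1, a gene of the distal arch mesenchyme, which measured 87.9, 91.6 and 5.50 CPM in control replicates 1, 2 and 3 and 70.1 and 84.0 CPM in the dCKO libraries.

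Of the 10 FGF genes, 1 passed the test, Spred1, which fell in dCKO tissue, while 0 rose. These counts stand beside 6.42% of all tested genes called in either direction, 1.42% called lower and 5.0% called higher (adjusted p below 0.05 by the quasi-likelihood test of edgeR). DESeq2 also called 1 of the 10 lower and 0 higher, with 1.86% and 4.68% of all genes called, as did limma-voom, with 1.60% and 5.26%. An unadjusted edgeR p below 0.05 was reached by 4 of the 10 (Fgfr2, Spry2, Spred1 and Dusp4), against 21.5% of all tested genes. The median log2 fold change was 0.20 over the 10 genes and 0.00 over all tested genes, and 6 of the 10 lay above 0, against 49.9% of all genes. Single values ran from −0.44 (Spred1) to 0.60 (Dusp4). Spry1, Spry2 and Etv5 were higher in both dCKO libraries than in every control, a pattern found in 19.0% of tested genes, and Fgfr2 and Spred1 were lower in both, as were 18.6%. The summed level of the 10 genes was 957 to 1126 CPM in the controls and 981 and 1033 CPM in dCKO tissue, so the groups overlapped. Control replicate 3 was the highest of the controls in 7 of the 10 genes, against 37.8% of all tested genes. Without that library 3 genes were called higher (Fgf8, Spry2 and Dusp4) and 2 lower (Fgfr2 and Spred1), where 7.37% and 5.33% of all genes were so called.

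**Figure D1:**
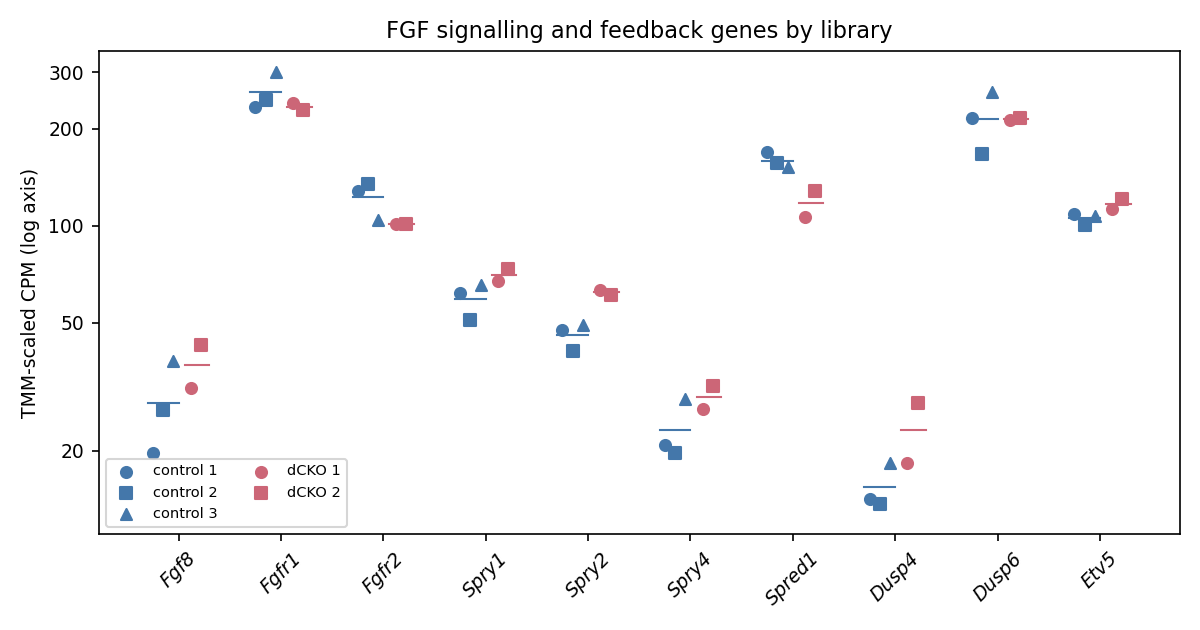
Level of each of the 10 genes in each library, in scaled CPM on a log axis; blue points are the 3 controls, red points the 2 dCKO libraries and horizontal lines the group means. Spred1 lies lower in both red points (106 and 128 CPM) than in any blue one, and Spry2 higher (63.3 and 60.9 CPM), while Fgf8, Spry4 and Dusp4 overlap between the groups only through control replicate 3 (triangles).

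The ligand gene came first in the pathway. Fgf8 measured 19.7, 26.8 and 37.9 CPM in control replicates 1, 2 and 3 and 31.3 and 42.7 CPM in dCKO replicates 1 and 2. The groups overlapped, since control replicate 3 lay above dCKO replicate 1, and the controls alone spanned nearly the whole range. The log2 fold change was 0.40 (SE 0.21, 95% interval −0.04 to 0.85, edgeR adjusted p = 0.278). Without control replicate 3 it was 0.67 (adjusted p = 0.0402), and without dCKO replicate 2 it was 0.17. Because Fgf8 is made by arch epithelium, whose markers were themselves higher in dCKO tissue, its counts were also set against theirs. For every 100 counts of the 14 epithelial markers there were 4.13, 4.72 and 8.44 counts of Fgf8 in the controls and 4.49 and 6.40 in dCKO tissue, values that overlap. The part of the epithelial content in the level of Fgf8 was not tested.

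Fgfr1, the main FGF receptor of the arch mesenchyme, measured 234, 246 and 301 CPM in the controls and 241 and 228 CPM in dCKO tissue. Control replicate 3 was the highest and the remaining libraries lay close together (log2 fold change −0.15, SE 0.13, 95% interval −0.41 to 0.12, edgeR adjusted p = 0.532). For Fgfr1 it was −0.04 without control replicate 3 and −0.29 with the GC trend removed (adjusted p = 0.103). Fgfr2, whose splice forms divide between epithelium and mesenchyme and were not separated by these counts, measured 128, 135 and 104 CPM in the controls against 101.1 and 101.2 CPM in dCKO tissue. Both dCKO libraries were the lowest, with control replicate 3 just above them. The log2 fold change of Fgfr2 was −0.28 (SE 0.13, edgeR adjusted p = 0.227), and −0.39 without control replicate 3 (adjusted p = 0.0337). The ratio of Fgfr1 to Fgfr2 counts, which needs no scaling between libraries, was 1.82, 1.82 and 2.88 in the controls and 2.39 and 2.26 in dCKO tissue. Both dCKO ratios fell inside the range that the controls spanned.

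Among the Sprouty genes, whose products are ERK-induced inhibitors of the cascade, Spry2 came closest to the threshold. It measured 47.4, 40.8 and 49.0 CPM in the controls and 63.3 and 60.9 CPM in dCKO tissue, and the lowest dCKO library lay 1.24 times above the highest control. The log2 fold change was 0.44 (SE 0.13, 95% interval 0.16 to 0.72, edgeR adjusted p = 0.0567). It stayed between 0.36 and 0.48 when any single library was left out, with adjusted p from 0.0307 without control replicate 3 to 0.298. Spry1 measured 61.8, 50.9 and 65.4 CPM in the controls and 67.2 and 73.5 CPM in dCKO tissue. The gap between the groups was small, the lowest dCKO library lying 1.03 times above the highest control (log2 fold change 0.25, SE 0.13, edgeR adjusted p = 0.298). Spry4, with the lowest level per length of the 10 genes, measured 20.9, 19.6 and 29.0 CPM against 27.0 and 31.9 CPM. The groups overlapped through control replicate 3 (log2 fold change 0.35, SE 0.18, 95% interval −0.04 to 0.74, edgeR adjusted p = 0.284). Spry3 had 0 counts in all 5 libraries, which allows a level of up to 0.0655 CPM over their pooled counts, counting error only.

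Spred1 encodes a membrane-bound relative of the Sproutys that brings neurofibromin to RAS. It measured 169, 157 and 153 CPM in the controls and 106 and 128 CPM in dCKO tissue, and the groups did not overlap. The log2 fold change was −0.44 (SE 0.13, 95% interval −0.71 to −0.17, edgeR adjusted p = 0.0438). The call was lost without control replicate 1 or 2 (adjusted p = 0.186 and 0.105) and without dCKO replicate 1, where the log2 fold change was −0.30 (adjusted p = 0.439). The authors' deposited table gives Spred1 a fold change of 0.75 with a p of 0.00501 and an adjusted p of 0.128, and no gene of the 10 has an adjusted p below that in the authors' deposited table. Its nearest relatives did not pass the test and had log2 fold changes above 0 (0.18 and 0.32). Spred2 was at 55.9 ± 8.63 and 63.0 ± 0.90 CPM (SD, n = 3 and 2) and Spred3 at 10.3 ± 0.76 and 12.8 ± 1.67 CPM. There were 3.56, 3.84 and 3.11 Spred1 counts for each Spry2 count in the controls and 1.68 and 2.11 in dCKO tissue. That ratio, formed after the values of both genes were seen and without a test, overlapped in no library between the groups. The genes whose levels over the 5 libraries were most like those of Spred1 were BC027231, Purg and Slc39a10, with root mean square differences of 0.020, 0.023 and 0.024 in centred log2 CPM (with 0.5 CPM added) among 10746 genes averaging at least 5 CPM.

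The transcript of Spred1 is the poorest in G and C of the 10, and fold changes across all genes moved with that property. With the tested genes cut into 5 bins of near equal size by the GC content of their longest transcript, the median log2 fold change went from −0.20 in the lowest bin to 0.21 in the highest, the share called lower from 3.17% to 0.475% and the share called higher from 1.58% to 9.59%. Spred1, at 41.2% GC, lay in the lowest bin. With each library's GC trend removed its log2 fold change was −0.25 (edgeR adjusted p = 0.208) and it was no longer called. Spry2, at 46.2%, lay in the bin above it, whose median log2 fold change was −0.10. With the GC trend removed Spry2 stood at 0.53 and was called higher (adjusted p = 0.0143), the only one of the 10 to be called under that correction, where 4.39% of all genes were called higher and 1.17% lower. Fgf8, Spry1 and Dusp4 were the members of the highest bin, at 62.8%, 56.7% and 56.0%, and their log2 fold changes became 0.15, 0.07 and 0.44. The median log2 fold change of the 10 genes went from 0.20 in the main fit to 0.09 with the GC trend removed.

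**Figure D2:**
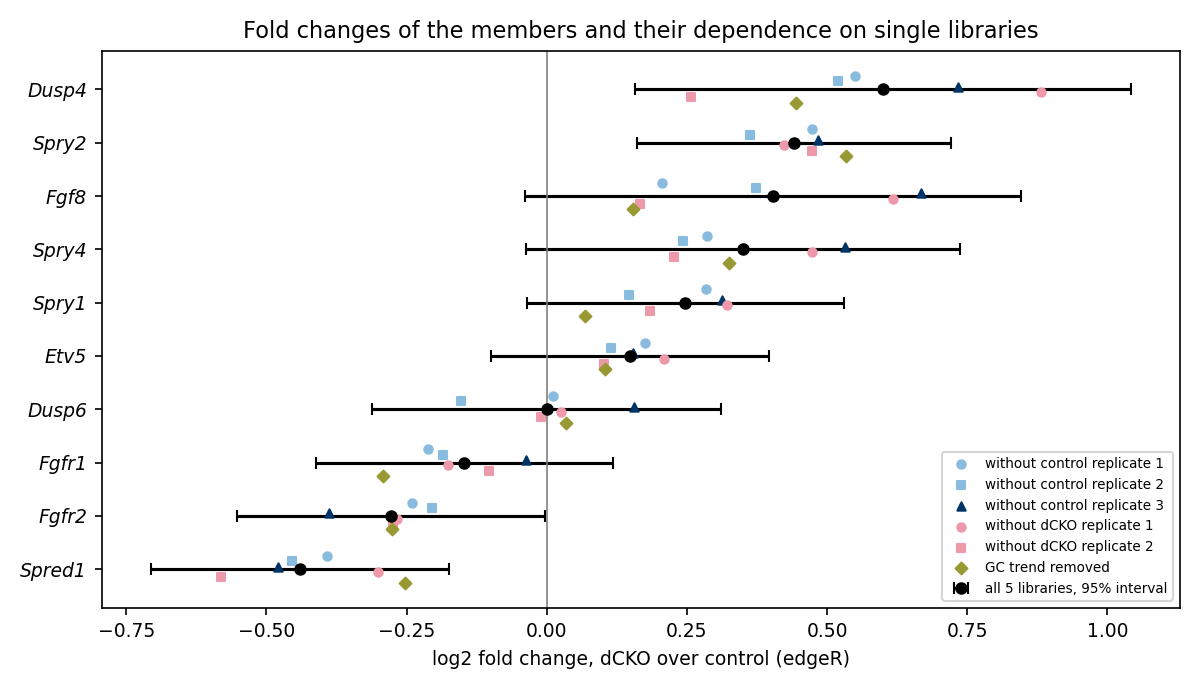
Fitted log2 fold change of each gene, dCKO over control, with its 95% interval (black), beside the values with each library left out and with the GC trend removed (coloured markers). All but Dusp6, which lies on either side of 0, keep their sign in the settings drawn; Fgf8 moves between 0.15 and 0.67 and Spred1 between −0.58 and −0.25.

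Dusp6, which encodes a cytoplasmic phosphatase specific to ERK and is a standard FGF readout, measured 216, 167 and 261 CPM in the controls and 213 and 217 CPM in dCKO tissue. Both dCKO values lay in the middle of the spread of the controls, and the log2 fold change was 0.00 (SE 0.15, 95% interval −0.31 to 0.31, edgeR adjusted p = 0.9998). Dusp4, an inducible nuclear phosphatase, measured 14.2, 13.7 and 18.33 CPM in the controls and 18.30 and 28.1 CPM in dCKO tissue. Only dCKO replicate 2 stood clear of the controls, and the log2 fold change of 0.60 (SE 0.21, 95% interval 0.16 to 1.04, edgeR adjusted p = 0.101) became 0.26 without that library and 0.88 without dCKO replicate 1. The related genes were grouped after these values were seen. The inducible nuclear phosphatase genes Dusp1, Dusp2 and Dusp5 had log2 fold changes of 0.84, 0.36 and 0.82, of which Dusp1 alone passed (14.2 ± 1.37 and 25.4 ± 0.96 CPM, SD, n = 3 and 2, edgeR adjusted p = 0.00594). The cytoplasmic phosphatase genes Dusp7 and Dusp9 had −0.09 and −0.17 (adjusted p = 0.759 and 0.395). Dusp1 belongs to the immediate early genes, of which 3 of 10 tested were called higher and 0 lower (5.0% and 1.42% over all tested genes), and their median log2 fold change was 0.85. Its companions past the threshold were Egr1 (1.95 ± 0.36 and 8.57 ± 5.32 CPM, SD, n = 3 and 2) and Btg2 (5.38 ± 1.12 and 18.8 ± 0.77 CPM). The part of these early response genes in the level of Dusp4 was not tested.

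**Figure D3:**
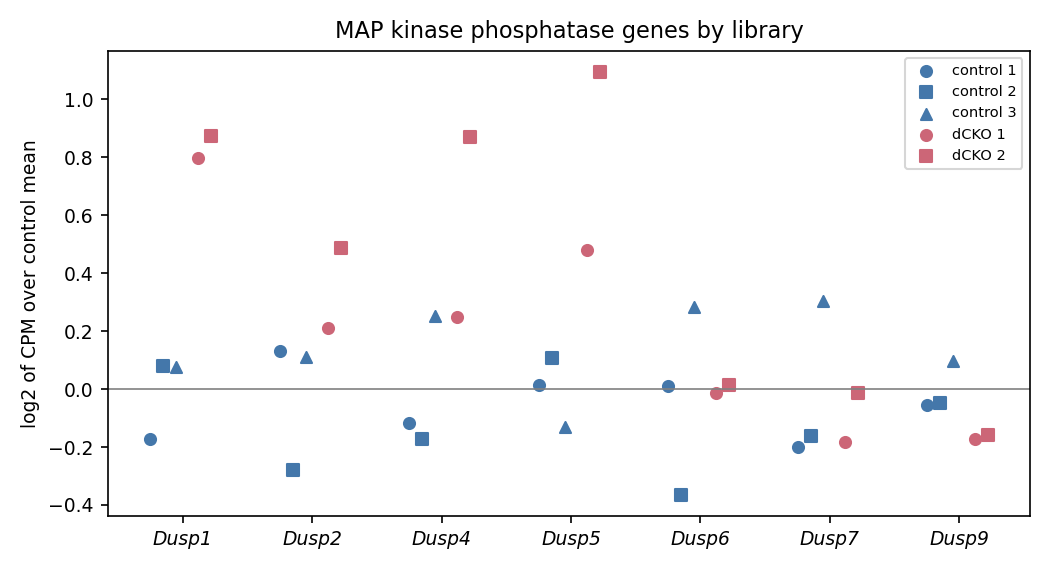
Level of 7 MAP kinase phosphatase genes in each library, as log2 of CPM over the mean of the 3 controls; blue points are controls and red points dCKO libraries. Dusp1, Dusp2 and Dusp5 lie higher in both dCKO libraries than in any control, Dusp4 in dCKO replicate 2 only, Dusp9 lies lower in both, and Dusp6 and Dusp7 lie inside the spread of the controls.

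Etv5, an ETS factor gene directly downstream of ERK, measured 109, 101 and 108 CPM in the controls and 113 and 121 CPM in dCKO tissue. Both dCKO libraries were higher than every control by a narrow margin, and the difference did not pass (log2 fold change 0.15, SE 0.12, 95% interval −0.10 to 0.40, edgeR adjusted p = 0.494). Its partner Etv4 measured 60.9 ± 9.43 and 59.0 ± 0.94 CPM (SD, n = 3 and 2), with control replicate 3 again the highest at 70.7 CPM. Of 7 other ETS factor genes 0 were called by edgeR and 1 (Ets2) reached an unadjusted p below 0.05, against 6.42% and 21.5% of all tested genes. Ets2 was at 85.6 ± 7.72 and 104.7 ± 0.03 CPM and Elk3 at 107.9 ± 4.36 and 107.2 ± 15.04 CPM.

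Per kilobase of longest transcript, the 10 genes kept a similar order at both ends in the groups. In the controls Dusp6 led at 76.8 ± 16.9 CPM per kilobase (SD, n = 3), followed by Fgfr1 at 51.6 ± 7.06. Fgfr2, Etv5, Spred1, Fgf8, Spry2 and Spry1 followed between 27.7 and 21.4, each neighbour overlapping the next. Dusp4 and Spry4 were lowest at 5.62 ± 0.93 and 4.87 ± 1.07, and overlapped each other. In dCKO tissue Dusp6 (76.8 ± 1.06, n = 2) and Fgfr1 (46.6 ± 1.82) again led and Dusp4 and Spry4 (8.47 ± 2.53 and 6.19 ± 0.72) again came last. Between them the order in dCKO tissue was Fgf8, Spry2, Etv5, Spry1, Fgfr2 and Spred1, where the first 3 overlapped as neighbours and the rest did not. Spred1 took rank 5 in the controls and rank 8 in dCKO tissue, and Spry2 ranks 7 and 4.

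Promoter sequences from RefSeq (GRCm38.p6), another build than the mm9 of the submitters' processing notes, were found for 6 of the 10 genes in 7 windows: Fgfr2, Spry1, Spry2, Spred1, Dusp6 and 2 for Etv5. The entries for Fgf8, Fgfr1, Spry4 and Dusp4 are missing. The 250 bases before the start site are shown for Spred1 and Spry2, which had the smallest p in each direction, for Dusp6, which had the fold change nearest 0, and for Spry1, which held the only TEAD core. Capitals mark the TEAD core GGAATG, the site of the factors through which YAP and TAZ act, and the octamers TGAATGAA, TCAATGAA, TGAATGGA and TCAATGGA of Capicua (CIC), a repressor that ERK relieves, each searched on both strands.
Spred1 (chr2:117120821-117121070, plus strand): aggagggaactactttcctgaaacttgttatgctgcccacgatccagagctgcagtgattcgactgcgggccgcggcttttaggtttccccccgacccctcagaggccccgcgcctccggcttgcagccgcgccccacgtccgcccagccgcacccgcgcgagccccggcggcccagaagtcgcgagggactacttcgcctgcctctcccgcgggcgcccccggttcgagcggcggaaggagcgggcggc
Spry2 (chr14:105896820-105897069, minus strand): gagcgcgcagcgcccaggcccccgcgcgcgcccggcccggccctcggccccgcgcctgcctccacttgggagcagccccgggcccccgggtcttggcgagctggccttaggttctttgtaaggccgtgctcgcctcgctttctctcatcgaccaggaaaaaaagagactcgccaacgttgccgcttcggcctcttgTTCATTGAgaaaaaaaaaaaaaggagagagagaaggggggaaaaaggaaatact
Dusp6 (chr10:99262981-99263230, plus strand): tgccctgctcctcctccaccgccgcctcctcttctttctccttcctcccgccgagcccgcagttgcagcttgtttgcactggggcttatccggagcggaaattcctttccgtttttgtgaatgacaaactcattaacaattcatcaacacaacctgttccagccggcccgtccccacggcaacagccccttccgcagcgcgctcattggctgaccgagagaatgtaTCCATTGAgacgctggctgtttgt
Spry1 (chr3:37639697-37639946, plus strand): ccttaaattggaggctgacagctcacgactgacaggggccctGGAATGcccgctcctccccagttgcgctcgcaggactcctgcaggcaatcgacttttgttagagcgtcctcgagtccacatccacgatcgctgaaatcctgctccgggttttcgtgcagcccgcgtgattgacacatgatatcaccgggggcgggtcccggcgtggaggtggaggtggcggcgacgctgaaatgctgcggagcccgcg
The core GGAATG occurred in 1 of the 7 windows, 208 to 203 bases before the start of Spry1, and in 12.6% of all 32851 promoter windows of that length. A CIC octamer occurred in the windows of Spry2 (TCAATGAA on the opposite strand, 54 to 47 bases before the start) and Dusp6 (TCAATGGA on the opposite strand, 24 to 17 bases before the start), and in 3.19% of all windows. Spred1, whose transcript was lower in dCKO tissue, held neither in these letters. The ETS core CCGGAA, searched in the same way, occurred in 0 of the 7 windows and in 12% of all windows. A match is a description of the letters and not of a bound site.

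The wider pathway was read from 74 further genes in 7 lists, of which 55 were tested. Of these 1 was called higher and 1 lower, and 14 reached an unadjusted p below 0.05, and the median log2 fold change over the 55 was −0.03. Over all tested genes 5.0% were called higher and 1.42% lower, and 21.5% had such an unadjusted p. The gene called higher was Hras1 (the older symbol of Hras), a RAS GTPase gene, at 118, 109 and 118 CPM in the controls and 183 and 138 CPM in dCKO tissue. Its log2 fold change was 0.48 (SE 0.13, edgeR adjusted p = 0.0342), and 0.28 without dCKO replicate 1 (adjusted p = 0.467). Hras1 was also not called without control replicate 1 or 2 (0.099 and 0.13) or with the GC trend removed (log2 fold change 0.33, adjusted p = 0.136). The other 18 of 19 tested transducers of the RAS-ERK cascade were not called, among them the phosphatase gene Ptpn11 (293 ± 16.6 and 286 ± 12.4 CPM) and the MAP kinase kinase gene Map2k2 (236 ± 28.01 and 295 ± 30.6 CPM, SD, n = 3 and 2 throughout).

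Few other FGF ligand genes passed the filter on low counts. Of 17 besides Fgf8, 3 were tested and 0 called (0 with an unadjusted p below 0.05), and Fgf6, Fgf21 and Fgf22 had 0 counts in all libraries. Beside each list of this paragraph stand 6.42% of all tested genes called in either direction and 21.5% with such an unadjusted edgeR p. Fgf10, a mesenchymal ligand, was at 25.4 ± 1.62 and 27.9 ± 4.47 CPM, Fgf9 at 2.61 ± 1.17 and 2.46 ± 0.74, and Fgf1 at 1.77 ± 0.56 and 3.002 ± 0.19 (SD, n = 3 and 2). Of 4 other tested receptor and co-receptor genes edgeR called 0, with 3 at an unadjusted p below 0.05. Fgfr3, which was named after its values were seen, measured 5.19 ± 0.84 and 8.18 ± 0.20 CPM. The adhesion receptor gene Flrt2, whose product binds FGF receptors, measured 83.4 ± 7.76 and 64.5 ± 13.3 CPM, Flrt3 69.3 ± 13.4 and 53.9 ± 3.75 CPM, and the decoy receptor gene Fgfrl1 78.1 ± 4.93 and 74.1 ± 8.11 CPM. Heparan sulphate, on which FGF binding depends, is made by enzymes of which 0 of 7 were called and 1 (Hs6st2) had an unadjusted p below 0.05. Ndst1 was at 175 ± 22.3 and 171 ± 14.1 CPM, Hs2st1 at 92.2 ± 6.23 and 83.6 ± 11.6 and Ext1 at 79.5 ± 1.92 and 70.9 ± 6.33. Of 10 other tested inhibitors of FGF signalling or the RAS-ERK cascade 0 were called and 2 had an unadjusted p below 0.05 (Dusp5 and Rasa1). Dusp9 was at 474 ± 29.0 and 423 ± 2.31 CPM, Il17rd, which encodes the membrane inhibitor SEF, at 129 ± 11.1 and 127 ± 1.75, and Rasa1, a RAS GTPase-activating protein gene, at 104, 93.3 and 88.1 CPM in the controls and 72.6 and 78.3 CPM in dCKO tissue.

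**Figure D4:**
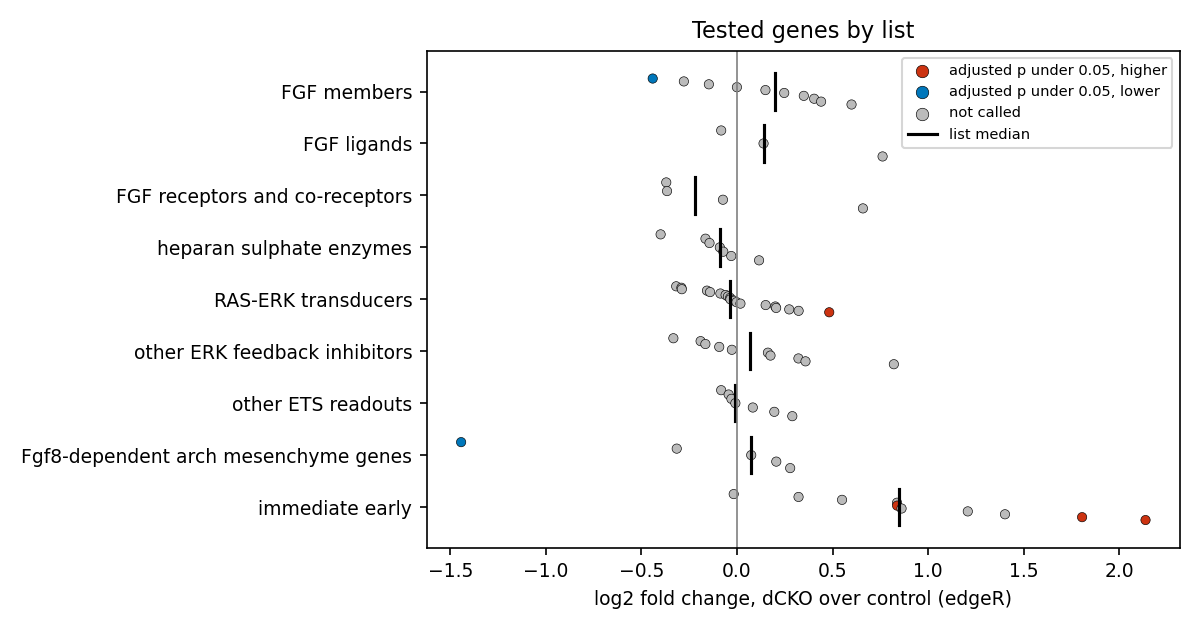
Log2 fold change, dCKO over control, of every tested gene in the 10 members, the 7 wider lists and the immediate early genes; vertical lines are list medians and colours mark genes past the threshold. Spred1 and Gsc are the called genes on the lower side, Hras1 and 3 immediate early genes those on the higher side.

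Arch mesenchyme genes known to depend on Fgf8 were read as a second kind of readout. Of 5 tested, 1 was called lower and 0 higher, against 1.42% and 5.0% of all tested genes. An unadjusted edgeR p below 0.05 was reached by 2 (Gsc and Lhx8), against 21.5% of all tested genes. Gsc, a homeobox gene of the mesenchyme, measured 10.6, 22.6 and 16.2 CPM in the controls and 4.90 and 7.12 CPM in dCKO tissue, and the groups did not overlap (log2 fold change −1.44 with SE 0.29, adjusted p = 0.00336 in edgeR). The gene lost its call without dCKO replicate 1 (log2 fold change −1.20, adjusted p = 0.0943). Barx1 was at 249 ± 36.3 and 262 ± 44.1 CPM, Lhx6 at 60.7 ± 10.2 and 73.4 ± 17.4 and Lhx8 at 121.0 ± 13.7 and 97.2 ± 9.43 (SD, n = 3 and 2). Lhx8 was lower in both dCKO libraries than in every control, as were 18.6% of tested genes. Among the controls, replicate 3 had the highest Barx1 (289 CPM), Lhx6 (72.1 CPM) and Fgf8 (37.9 CPM) and the lowest Hand1. It did not have the highest Gsc, Lhx8 (132, 106 and 125 CPM in control replicates 1, 2 and 3) or Pax9 (1.05, 2.84 and 1.83 CPM). Control replicate 3 was the highest control in 37.8% of all tested genes.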

How the data were processed

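The authors deposited raw counts per gene symbol, and beside them their own test of dCKO against control, with the mean normalized signal of each group, a fold ratio, its log2 and p-values according to that table (per the file headers). The tools named in the submitters' processing notes are HTSeq 0.5.4p3 and DESeq 1.16.0, and the build is mm9. The aligner, annotation, counting mode and use of strand were not given in the sources used here. Of the 23441 rows, 27 have symbols turned into dates.

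Genes were filtered with filterByExpr (minimum count 10, minimum total 15), scaled with TMM and tested in edgeR 4.0.16 under R 4.3.3 with the two-sided quasi-likelihood F test, adjusted by Benjamini-Hochberg over 12710 genes at a threshold of 0.05. CPM are TMM-scaled. SEs were the size of the log2 fold change divided by the root of F. Counts of the 10 genes ran from 101 to 2981 per library. Alternatives used DESeq2 1.42.0, limma 3.58.1 (voom), RLE scaling, TMM without blood genes, 2 other filters, each library left out, a replicate block, removal of each library's GC trend (GENCODE M21, with GC content for 99.3% of tested genes) and, added after the data were seen, plain library totals. Lengths are of the longest GENCODE M21 transcript. Libraries of 1 group were distinct, with chi-square values per gene from 4.34 to 14.6. The fit was tested on simulated data.

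The 10 genes and all lists were chosen with earlier results of these data known. Named were all 10, the genes past the threshold in each wider list and up to 3 of each list with the highest CPM, and the 3 genes most like each called member, and some values under this rule are not reported here. Chosen outside the rule once values were known were Fgfr3, Spred2, Spred3, Spry3, Fgf6, Fgf21, Fgf22, Dusp1, Dusp2, Dusp5, Dusp7, Hs6st2, Egr1, Btg2, Pax9 and Hand1.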

Additional observations from a re-analysis of the deposited data

How the results depend on the processing

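Of 150 values of the 10 genes under 15 alternatives, 119 kept their direction and side of the threshold, 6 lost the call (all Spred1), 16 gained one and 9 changed sign (all Dusp6). Dusp6 moved from 0.00 to 0.026 with limma-voom, 0.0067 with no filter on low counts, 0.021 with the stricter filter and 0.035 with the GC trend removed, and ranged from −0.15 to 0.16 with single libraries left out (0.01, 0.16 and 0.02 without control replicate 1, control replicate 3 and dCKO replicate 1). It was 0.18 with the replicate block and 0.22 with the block and the GC trend removed. None of these passed. With single libraries left out, 403 to 950 genes in all were called higher and 39 to 687 lower, 0 to 3 of the 10 higher and 0 to 2 lower, and 0 to 2 of the wider genes higher and 0 to 4 lower. These fits hold fewer samples, and with 1 dCKO library its spread was assumed equal to that of the controls. With no filter, 851 of 18611 genes were higher and 305 lower in all, and 2 of the 10 higher (Spry2 and Dusp4) and 1 lower (Spred1). With the stricter filter 545 of 10744 genes were higher and 125 lower in all, and 1 of the 10 higher (Spry2) and 0 lower (Spred1 at −0.42, adjusted p = 0.0627). With the GC trend removed 1 of the 10 was higher and 0 lower, and 0 of the wider genes were higher and 2 lower. Plain library totals, which moved the median log2 fold change of all genes to −0.08, gave 469 lower genes in all and 0 wider genes higher and 2 lower. The cause of these changes was not tested.

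Replicate numbers are shared by the titles alone. Deviations of same-numbered libraries from their group means correlated at 0.13 (number 1) and −0.07 (number 2) over 10747 genes. The 2 dCKO deviations are the same values with opposite sign, so these correlations cannot show whether the numbers mark pairs. The main fit did not take the numbers as pairs. With the replicate block, which sets control replicate 3 apart by construction, 1200 of 12710 tested genes were higher and 921 lower in all. Of the 10, 4 were higher (Fgf8, Spry2, Spry4 and Dusp4) and 2 lower (Fgfr2 and Spred1). Of the wider genes 3 were higher and 6 lower. With the block and the GC trend removed 622 of 12710 tested genes were higher and 300 lower in all. Of the 10, 1 was higher (Spry2) and 1 lower, which was Fgfr2 (−0.38, edgeR adjusted p = 0.0303). Spred1 was no longer called (−0.22, edgeR adjusted p = 0.233), and of the wider genes 0 were higher and 2 lower. The filter on low counts left 19 of the 74 wider genes untested.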
